A study of Mus musculus with 103 samples.

Results

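The collagen genes of the mouse were taken as every gene whose platform symbol has the form Col, a type number, the letter a and a chain number. This gave 44 genes of 19938 measured, from 46 probe sets, because Col6a5 and Col6a6 each had 2 probe sets, of which the one with the higher mean was used. The atlas sampled the early face of CD1 outbred mouse embryos, all without any stated genetic change or treatment, on embryonic day E8.5 and on the days E9.5 and E10.5 that follow. Regions were cut from frozen sections by laser capture, RNA was amplified, and each sample was hybridised to 1 Affymetrix whole-transcript array. The labels place 102 of 103 samples in 22 groups of 4 to 7 libraries, with 18 libraries in 4 groups at E8.5, 34 in 6 groups at E9.5 and 50 in 12 groups at E10.5. The remaining E9.5 sample carries both a mandibular arch and an epidermal ectoderm label and entered no comparison. Neither an embryo nor a litter is given for a sample, so that libraries of a group may come from a single embryo, and every p-value then measures only the spread between libraries.

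At E8.5 the groups are mesenchyme and caudal, floor plate and non-floor plate neural epithelium. At E9.5 they are cranial mesenchyme, mandibular and maxillary arch, epidermal ectoderm, otic vesicle and neuroepithelium. At E10.5 they are both arches, the epidermal ectoderm of each, the lateral nasal eminence, the medial nasal prominence, the olfactory pit, Rathke's pouch, and control, midline, lateral and medial neuroepithelium, the last pair lying under the nasal prominences. Values are log2 of the authors' ratio for a probe set, so that 0 is the baseline of the table (each probe set's median over 21 samples, as the values show), 1 is 2-fold above it, and levels of different genes cannot be compared. Fold changes are the antilog of differences of log2 ratios. Differences are given with their standard error (SE) from limma, means with their SD, and an adjusted p is limma's after Benjamini-Hochberg adjustment over all 19938 genes of that comparison, with a threshold of 0.05.

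Collagens are secreted or membrane proteins in which 3 chains wind into a triple helix. Fibrillar collagens assemble into the fibrils of connective tissue, FACIT collagens bind to the surface of such fibrils, and type IV collagen forms the sheet of basement membranes beneath epithelia. In the young head, loose mesenchyme derived from neural crest and mesoderm lies between these epithelia and later makes most of the bone, cartilage and dermis of the face.

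The labels were checked against marker genes, as the mean log2 ratio of each list. Mesenchyme markers (9 genes, Twist1 and Prrx1 among them) averaged 2.44 in E8.5 mesenchyme and 2.38 in E9.5 cranial mesenchyme, and between -1.03 and -0.58 in the 8 neural groups. The E10.5 libraries labelled mandibular arch epidermal ectoderm went against their label, with a mesenchyme mean of 1.33 and a surface ectoderm mean of -0.20, against 0.02 and 1.32 in the libraries labelled maxillary arch epidermal ectoderm. The E10.5 libraries labelled maxillary arch had a surface ectoderm mean from 0.82 to 2.34 in replicates 1 to 4 and of -0.68 in replicate 5. E9.5 otic vesicle replicates 3 and 5 had otic marker means of 0.31 and -0.05, against 0.64 to 1.79 in the other replicates. Replicates 1 and 3 labelled mandibular arch epidermal ectoderm had a correlation of 0.947 over all genes. The next highest pair of arrays, E9.5 mandibular arch replicate 2 and E9.5 maxillary arch replicate 2, was at 0.847. Whether either pair shares a source is not stated. The SD of an array's log2 ratios ran from 0.391 to 1.33 and exceeded 0.85 on 11 arrays, with E9.5 epidermal ectoderm replicate 7 at the top of that range.

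Across the 22 groups, 36 of the 44 collagens differed by limma's moderated F test, which is 81.8% against 59.0% of all genes. The median range between the highest and the lowest group mean was 0.61 for collagens and 0.8 for all genes, and Col9a1 (range 2.85) and Col1a2 (range 2.35) were the 2 collagens with a range over 2, a size reached by 22.3% of all genes. The 8 collagens that did not pass were Col4a3, Col5a1, Col6a4, Col6a5, Col6a6, Col22a1, Col25a1 and Col28a1, with adjusted p from 0.051 to 0.63. By structural class, 10 of 11 fibrillar, 8 of 9 FACIT, 5 of 6 type IV, 3 of 6 type VI, 3 of 3 short-chain network, 2 of 2 multiplexin, 3 of 4 transmembrane and 2 of 3 other collagens passed. The group labelled maxillary arch epidermal ectoderm at E10.5 had the highest mean for 18 collagens, and E8.5 caudal neural epithelium the lowest for 19. The share of all genes with these extremes is not given, so the counts do not set collagens apart. The mean array SD was 0.786 in the first of these groups and 0.628 in the second, where groups ran from 0.495 to 0.838. Its part in these counts was not tested. In bulk libraries such as these, fewer cells of a type and less RNA per cell cannot be told apart.

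**Figure D1:**
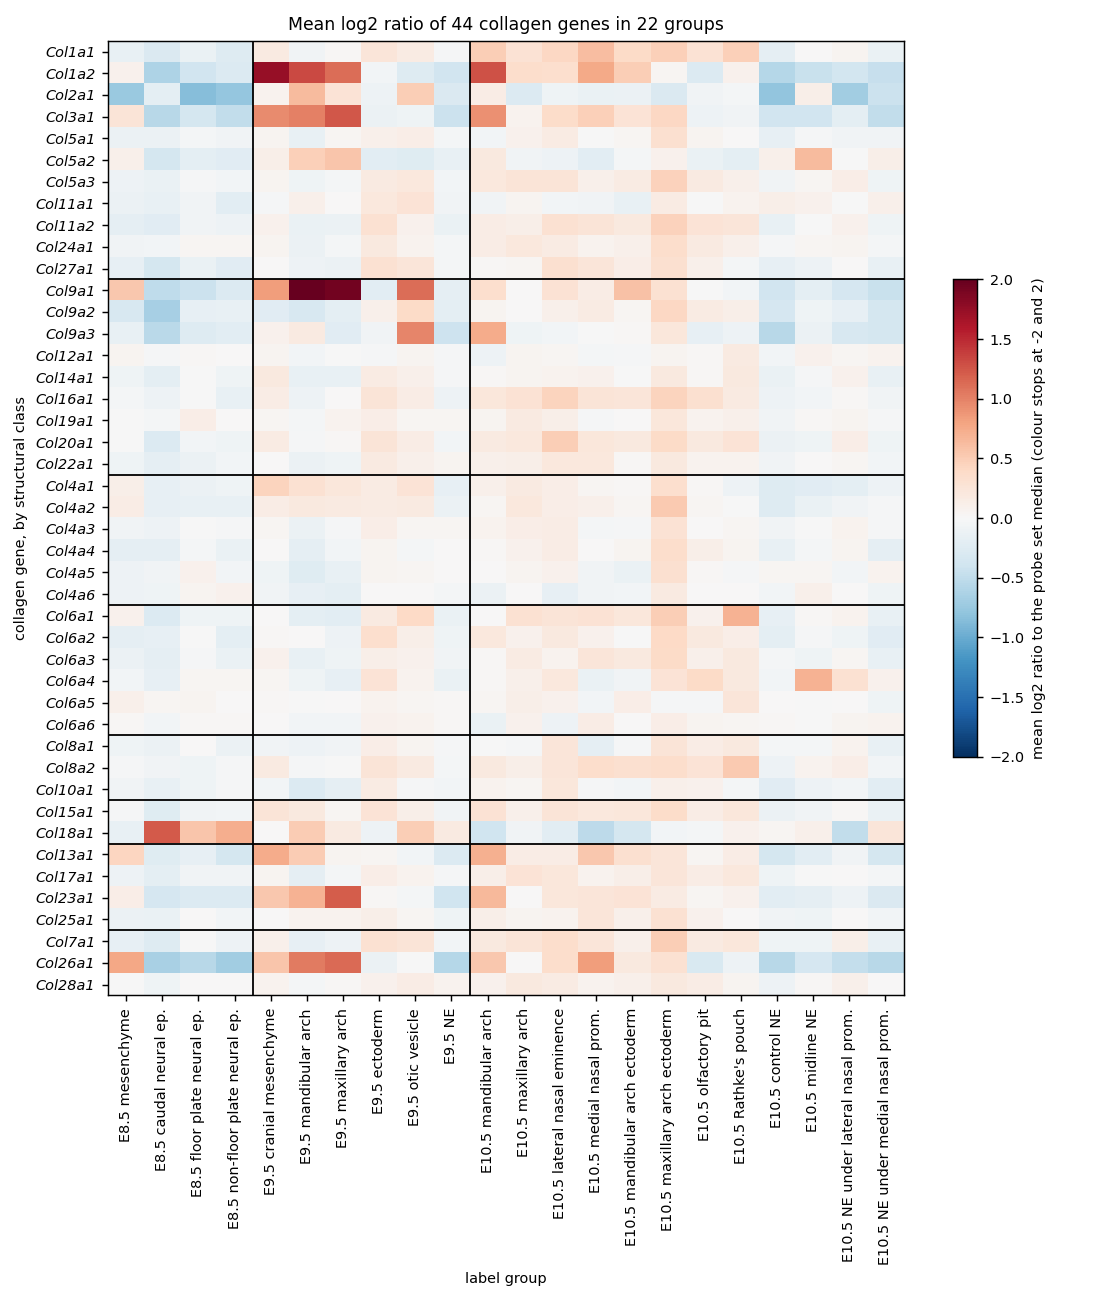
Mean log2 ratio (colour, stopping at -2 and 2) of the 44 collagens (rows, by structural class) in the 22 label groups (columns, by stage). Strong red is limited to a few genes, with Col9a1 at 2.35 in the E9.5 mandibular arch and Col1a2 at 1.74 in E9.5 cranial mesenchyme, and Col18a1 stands at 1.22 in E8.5 caudal neural epithelium.

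Where mesenchymal tissue was set against the epithelium of its stage, a small and recurring set of collagens was higher. In E8.5 mesenchyme against the 3 neural epithelia, 4 collagens were higher (Col26a1, Col9a1, Col3a1 and Col13a1) and Col18a1 was lower, at a background of 1.65% of all genes higher and 0.752% lower. In E9.5 cranial mesenchyme against neuroepithelium, 6 collagens were higher (Col1a2, Col3a1, Col26a1, Col13a1, Col23a1 and Col4a1) and 0 lower, where 0.632% of all genes were higher and 0.517% lower. In the E10.5 nasal prominences against their underlying neuroepithelium, 9 were higher and 0 lower, where 5.98% of all genes were higher and 14.9% lower. In the E9.5 arches against epidermal ectoderm, 7 were higher (Col9a1, Col1a2, Col3a1, Col26a1, Col23a1, Col5a2 and Col2a1) and 15 lower, at a background of 23.3% higher and 13.6% lower, so that the share of collagens that were higher, 15.9%, lay below that of all genes. Col3a1 and Col26a1 passed in all 4 comparisons, and Col1a2 passed in 3. The comparisons use different libraries on both sides but share a spread pooled over all groups, and shared embryos are not excluded. With only the compared groups in the fit, Col3a1 and Col26a1 did not pass in cranial mesenchyme. Mesenchyme markers moved with these collagens, with 9, 7, 7 and 5 of 9 higher in the order above. Endothelial markers, 10 genes of vessel lining such as Pecam1, were higher for 9, 4, 0 and 10 of 10, and erythroid markers for 3, 3, 0 and 5 of 6. The part of vessel and blood cells in the collagen differences was not tested.

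**Figure D2:**
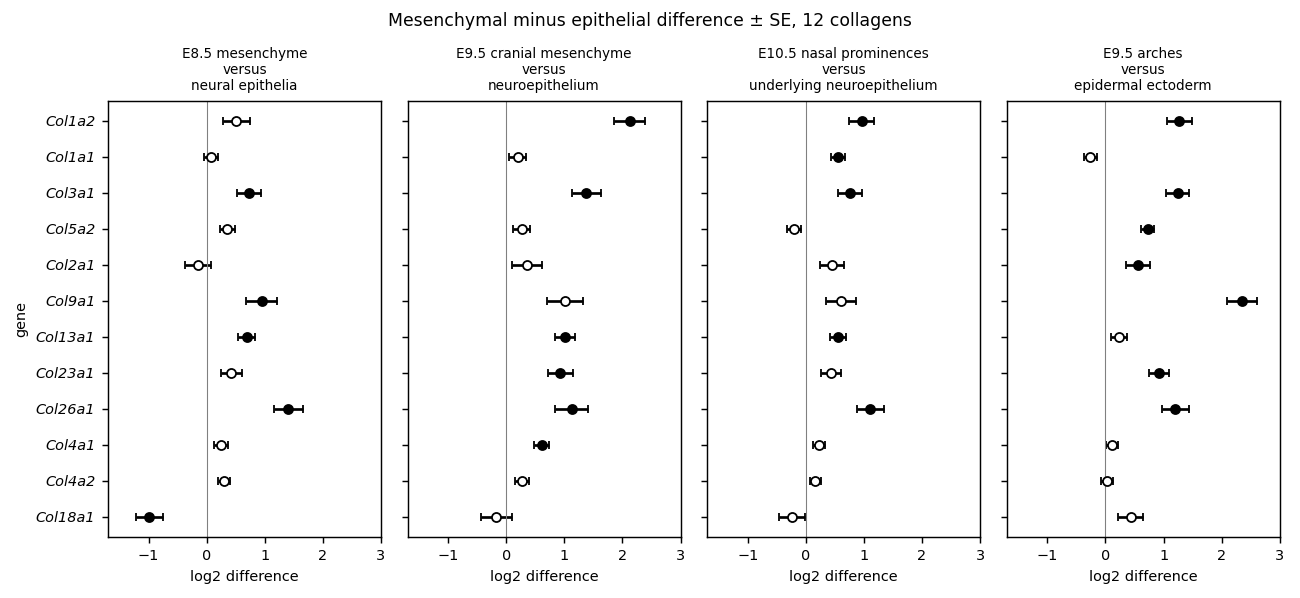
Difference of mean log2 ratios (x axis, first tissue minus second) with its SE for 12 collagens in the 4 comparisons of mesenchymal tissue with epithelium; filled points passed an adjusted p of 0.05. Col3a1 and Col26a1 are filled in all 4 panels, Col9a1 reaches 2.35 in the arches, and Col18a1 is the filled point below 0 at E8.5.

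Among the fibrillar collagens, Col1a2 (probe set 10536220), the gene of the alpha 2 chain of type I collagen, the main fibril of bone and skin, had the strongest F test of all 44 (F = 11.94, adjusted p = 1.4e-14). In the 6 libraries of E9.5 cranial mesenchyme its log2 ratio was lowest at 0.62, with a median of 1.73 and a highest value of 2.77. In the 5 E9.5 neuroepithelium libraries it was -0.53, 0.14, -0.71, -0.39 and -0.43. Every mesenchyme library lay above every neuroepithelium library, and the fold change was 4.35 (2.12 ± 0.26 SE, adjusted p = 3.1e-08). At E8.5 the 5 mesenchyme libraries read -0.20, -0.22, 0.38, 0.42 and 0.07. These lay below all 6 cranial mesenchyme libraries of the next stage, a 3.14-fold difference (1.65 ± 0.26 SE, adjusted p = 1.3e-05). Col1a2 was the single collagen to pass in that stage comparison, where 0.381% of all genes were higher and 1.15% lower. The mesenchyme-minus-neural difference itself was larger at E9.5 than at E8.5 by 1.61 ± 0.35 (adjusted p = 8.7e-03), again with Col1a2 the 1 collagen of 44 to pass, where 0.0602% of all genes were higher. All 6 erythroid markers were higher in mesenchyme at E9.5 than at E8.5, 1 of 10 endothelial markers was lower, and their part in the Col1a2 difference was not tested. With only the compared groups in the fit the stage difference of Col1a2 had the same size and an adjusted p of 0.076.

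Col1a2 was also above the neural tissue at E10.5. In the E10.5 mandibular arch it read 1.14, 0.60, 1.56 and 1.78, in the medial nasal prominence 0.38, 0.35, 0.96 and 1.34, and in the lateral nasal eminence 0.37, 0.00, 1.32 and -0.34. The mandibular arch and medial nasal libraries lay above every neuroepithelium library of that stage, while the lateral nasal eminence overlapped them. Both nasal groups together were 1.95-fold above their underlying neuroepithelium (0.96 ± 0.22 SE, adjusted p = 1.0e-03). In the E9.5 arches Col1a2 averaged 1.22 ± 0.74 (SD, n = 10) against -0.06 ± 0.46 (n = 7) in epidermal ectoderm, a 2.42-fold difference (1.27 ± 0.22 SE, adjusted p = 1.3e-05) with overlap, since ectoderm replicate 2 stood at 0.83. In the order of group means the next after E9.5 cranial mesenchyme (1.74) were the E9.5 mandibular arch (1.32), the E10.5 mandibular arch (1.27) and the E9.5 maxillary arch (1.11), each within 1 SD of its neighbour, and all 8 neural groups stood at -0.27 or below.

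Col1a1 (probe set 10380419), whose product pairs with that of Col1a2 in type I collagen, was not called at E9.5. In E9.5 cranial mesenchyme its log2 ratio ran from -0.27 to 0.41 with a median of 0.24, and in neuroepithelium it was -0.22, 0.00, 0.09, 0.10 and -0.07. The groups overlapped and the difference was 0.20 ± 0.15 SE (adjusted p = 0.95). The difference Col1a2 minus Col1a1 within a library was 1.56 ± 0.90 (SD, n = 6) in cranial mesenchyme and -0.36 ± 0.34 (n = 5) in neuroepithelium, without overlap (two-sided exact permutation test, p = 0.00433, adjusted p = 0.024 over 44 tests of chain pairs). It was 1.24 ± 0.84 (n = 10) in the E9.5 arches and -0.29 ± 0.48 (n = 7) in epidermal ectoderm (exact permutation p = 0.000823, adjusted p = 0.009). Without neuroepithelium replicate 3 the first of these had an adjusted p of 0.057. Such a within-library difference shows that the 2 probe sets changed unequally and not that one of them was constant. At E10.5 Col1a1 did pass, with 0.74, 0.86, 0.47 and 0.42 in the medial nasal prominence and 0.48, 0.53, 0.15 and 0.47 in the lateral nasal eminence. Against the underlying neuroepithelium this was 1.47-fold (0.55 ± 0.12 SE, adjusted p = 7.0e-04), with 1 overlapping nasal library, lateral replicate 3. With each array's 5th percentile added as a covariate that difference was 0.24 (adjusted p = 0.085). Over the 22 group means Col1a1 had r = 0.81 with the mean array SD of the group and Col1a2 had r = 0.14.

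**Figure D3:**
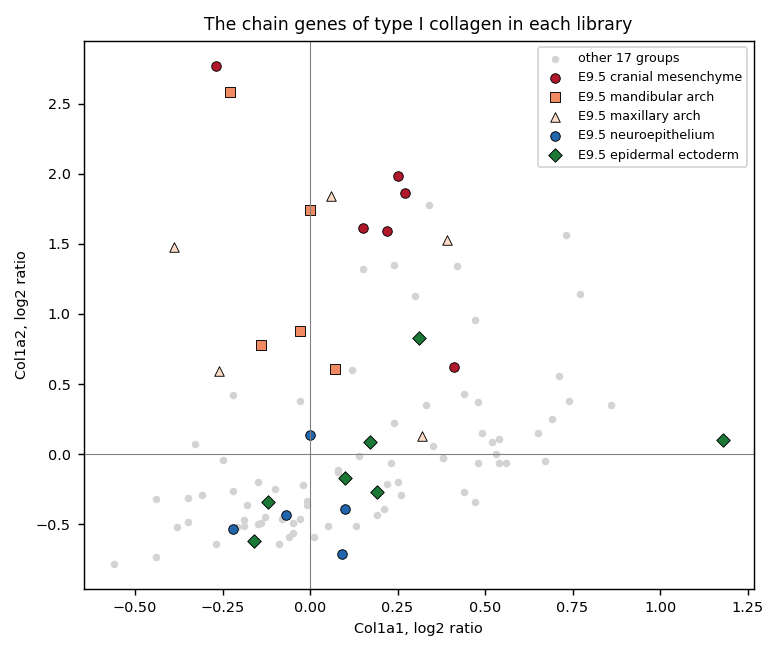
Log2 ratio of Col1a2 (y axis) against that of Col1a1 (x axis), 1 point per library, for 5 groups of E9.5 and, in grey, the other 17. Cranial mesenchyme and arch libraries spread upwards to 2.77 in Col1a2 while they stay between -0.39 and 0.41 in Col1a1.

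Col3a1 (probe set 10346015), the chain of type III collagen, a fibril of soft and elastic tissue, was the fibrillar gene closest to Col1a2, with r = 0.94 over 22 group means. In E9.5 cranial mesenchyme 4 libraries lay between 0.29 and 0.39 and replicates 2 and 5 at 1.95 and 2.43. All were above the neuroepithelium, whose highest library was at -0.23, and the fold change was 2.60 (1.38 ± 0.24 SE, adjusted p = 9.4e-05). The E9.5 mandibular arch read 1.69, 0.55, 1.36, 0.93 and 0.54 and the maxillary arch 1.78, 2.39, 0.46, 0.87 and 0.75. No arch library overlapped the epidermal ectoderm, whose highest was 0.42, and the arches were 2.37-fold higher (1.25 ± 0.20 SE, adjusted p = 4.5e-06). In the E10.5 nasal groups Col3a1 read between 0.19 and 0.64, all above the neuroepithelium beneath (highest 0.12), at 1.69-fold (0.76 ± 0.20 SE, adjusted p = 4.8e-03). At E8.5 the mesenchyme libraries were 0.17, -0.03, 1.01, 0.00 and 0.15, all above the neural epithelia, and the difference of 0.73 ± 0.21 passed narrowly (adjusted p = 0.041). Without mesenchyme replicate 3 it was 0.54 with an adjusted p of 0.38.

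The upstream sequences of Col1a2 and Col3a1, genes whose group means moved together, are shown to set their promoters side by side. Each is the 250 bases before the annotated transcript start in RefSeq (GRCm38.p6, plus strand), 5′ to 3′, chr6:4505368-4505617 for Col1a2 and chr1:45311288-45311537 for Col3a1, and capitals mark matches, on either strand, to 3 short promoter motifs. The first, CCAAT, is bound by a widespread activator. The second was TATAA, the core of the box found near many regulated starts. The third was GGGCGG, to which factors of the Sp family bind.
Col1a2: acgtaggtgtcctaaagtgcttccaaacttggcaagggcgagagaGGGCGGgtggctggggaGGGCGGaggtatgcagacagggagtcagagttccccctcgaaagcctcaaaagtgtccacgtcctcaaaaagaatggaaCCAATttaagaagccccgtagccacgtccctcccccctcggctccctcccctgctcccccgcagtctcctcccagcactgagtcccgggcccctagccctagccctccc
Col3a1: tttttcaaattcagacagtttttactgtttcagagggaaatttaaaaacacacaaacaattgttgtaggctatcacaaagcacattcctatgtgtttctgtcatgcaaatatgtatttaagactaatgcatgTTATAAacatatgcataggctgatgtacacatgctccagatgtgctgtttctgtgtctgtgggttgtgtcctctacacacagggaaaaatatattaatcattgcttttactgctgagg
Col1a2 held 1 CCAAT at -109 to -105 from the start and 2 GGGCGG. Col3a1 held none of those but 2 overlapping TATAA matches, 1 on each strand. They lay at -117 to -113 and -118 to -114, and are the same TTATAA read in both directions. Of 32851 promoters of the table, 33.8% held CCAAT, 22.8% TATAA and 32.7% GGGCGG in the same 250 bases. Among 38 promoters of the 35 collagens found in the table, 13 held CCAAT, 7 TATAA and 22 GGGCGG.

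The other fibrillar collagens moved less. Col5a2 (probe set 10354309), a chain of the type V collagen that sits inside type I fibrils, read 1.02, 0.63, 0.17, 0.41 and 0.16 in the E9.5 mandibular arch and 0.86, 1.41, 0.68, 0.10 and -0.26 in the maxillary arch. Epidermal ectoderm ran from -0.35 to 0.14, overlapping 2 maxillary libraries, and the arches were 1.65-fold higher (0.72 ± 0.12 SE, adjusted p = 8.1e-06). Its highest group was none of these but E10.5 midline neuroepithelium, with 0.34, 1.09, 0.39 and 0.69. Its partner chains Col5a1 and Col5a3 had no call in the arches, and Col5a2 minus Col5a1 was higher there than in ectoderm by 0.89 (exact permutation p = 0.00735, adjusted p = 0.029). That call ended without any of ectoderm replicates 2, 6 and 7 or maxillary arch replicate 3. Col2a1, the cartilage fibril chain, had its highest group means in the E9.5 mandibular arch (0.64) and otic vesicle (0.50) and its lowest in E8.5 floor plate (-0.85), and its call in the arches (0.56 ± 0.21, adjusted p = 0.030) was lost under quantile normalization (0.35, adjusted p = 0.31). Col11a1, Col11a2, Col24a1 and Col27a1 had group-mean ranges from 0.46 to 0.68.

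Col26a1, Col13a1 and Col23a1, which form no fibrils, shared the pattern of Col1a2 and Col3a1. Over the 22 group means their correlations with the mean of the mesenchyme markers were 0.89, 0.88 and 0.80, beside 0.87 for Col1a2 and for Col3a1, as a description of groups that share stage and dissection. A correlation over 0.7 with these markers was seen for 6 of 44 collagens (13.6%) and 0.9% of all genes. Col26a1 (probe set 10534640), a secreted collagen first described in reproductive tissue, was the collagen with the largest difference at E8.5. Its mesenchyme libraries read 0.18, 1.27, -0.22, 0.77 and 1.86, all above the 13 neural libraries, whose highest was -0.48. The fold change was 2.65 (1.41 ± 0.25 SE, adjusted p = 3.1e-05). Cranial mesenchyme at E9.5 ran from 0.02 to 1.48 against -0.67 to -0.46 in neuroepithelium, a 2.18-fold difference (1.13 ± 0.28 SE, adjusted p = 0.018) that did not pass without cranial mesenchyme replicate 2 (adjusted p = 0.11) or 3 (0.074). With only those groups in the fit, Col1a2 and Col23a1 passed there, and Col4a1, Col13a1, Col26a1 and Col3a1 had adjusted p of 0.096, 0.12, 0.17 and 0.39. In the nasal groups Col26a1 was 2.16-fold higher (1.11 ± 0.23 SE, adjusted p = 4.0e-04), with all 4 medial libraries at 0.56 or above and lateral replicate 4 at -0.36 among the neuroepithelium. In the E9.5 arches it was 2.30-fold above ectoderm (1.20 ± 0.23 SE, adjusted p = 9.1e-05), with maxillary arch replicate 5, at 0.13, the 1 arch library not above all ectoderm.

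Col13a1 (probe set 10369485) and Col23a1 (probe set 10375838) encode collagens that span the cell membrane. Col13a1 at E9.5 read 0.36, 0.89, 1.52, 0.86, 0.32 and 0.47 in cranial mesenchyme and -0.49, 0.11, -0.45, -0.20 and -0.33 in neuroepithelium. The groups did not overlap and differed 2.01-fold (1.01 ± 0.17 SE, adjusted p = 3.9e-05). At E8.5 mesenchyme replicates 3 and 4 overlapped the neural libraries at -0.30 and -0.06 while the others lay between 0.78 and 0.94 (difference 0.69 ± 0.15, adjusted p = 1.1e-03). In the E9.5 arches Col13a1 was not called (0.24 ± 0.14 SE, adjusted p = 0.16). Col23a1 was, at 1.89-fold (0.92 ± 0.17 SE, adjusted p = 6.4e-05), with maxillary libraries at 1.97, 1.74, -0.01, 1.27 and 1.08 and ectoderm between -0.50 and 0.48. In cranial mesenchyme Col23a1 ran from 0.32 to 1.19, all above neuroepithelium, which ran from -0.54 to -0.25, a 1.91-fold difference (0.93 ± 0.21 SE, adjusted p = 4.9e-03). Over group means Col23a1 had r = 0.96 with Col3a1, its closest collagen.

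**Figure D4:**
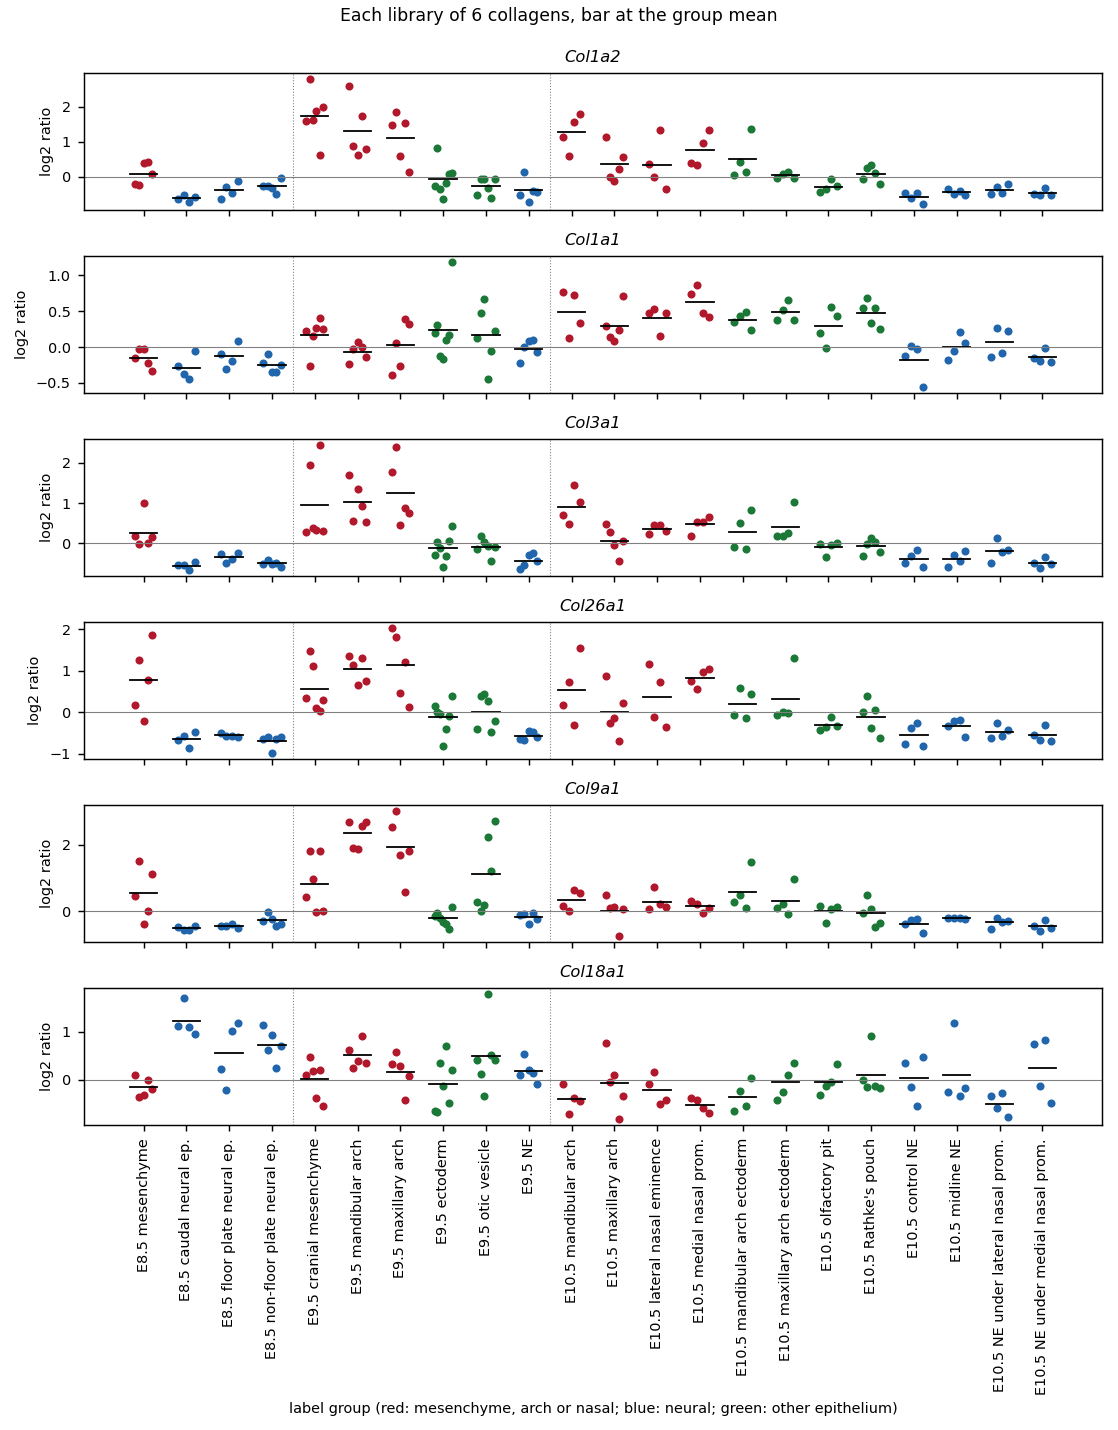
Log2 ratio (y axis) of 6 collagens in every library of the 22 groups (x axis), with a bar at each group mean and dotted lines between stages. Col1a2 rises from E8.5 to E9.5 mesenchyme, group means of Col1a1 lie between -0.29 and 0.62, Col9a1 stands highest in the E9.5 arches with libraries up to 3.01, and Col18a1 is highest in E8.5 neural groups.

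Of the FACIT collagens, which lie on fibrils, Col9a1 (probe set 10345101), a chain of the type IX collagen that decorates cartilage fibrils, was the most variable collagen of all. In the E9.5 mandibular arch it read 2.68, 1.91, 1.88, 2.58 and 2.68, and in the maxillary arch 2.55, 3.01, 1.71, 0.57 and 1.82. The epidermal ectoderm ran from -0.53 to 0.13. No library overlapped, and the arches were 5.10-fold higher (2.35 ± 0.25 SE, adjusted p = 6.7e-11). They were also 2.47-fold above cranial mesenchyme (1.30 ± 0.27 SE, adjusted p = 2.5e-03), where 0.742% of all genes were higher and 0.191% lower, although the groups overlapped, with cranial mesenchyme replicates 2 and 5 both at 1.81. With only those groups in the fit that adjusted p was 0.43. Col14a1, another FACIT gene, was the 1 collagen lower there (-0.35 ± 0.09, adjusted p = 0.036), a call lost when any of 10 single libraries was left out, 5 from each tissue, with an adjusted p of 0.11 without cranial mesenchyme replicate 4.

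Col9a1 was also high in part of the otic vesicle, the rudiment of the inner ear. Its libraries read 0.27, 0.02, 0.20, 2.25, 1.22 and 2.71, so that replicates 4, 5 and 6 stood far above the ectoderm and replicate 2 within its range. Against epidermal ectoderm this was 2.50-fold (1.32 ± 0.29 SE, adjusted p = 0.011), the 1 collagen called where 0.311% of all genes were higher, and the call ended without otic replicate 4 (adjusted p = 0.13) or 6 (0.11) and, at 0.90, with only those groups in the fit. Without replicates 3 and 5, whose otic markers were low, 3 collagens were called. In E8.5 mesenchyme Col9a1 ran from -0.39 to 1.52 and exceeded the neural epithelia by 0.95 ± 0.27 (adjusted p = 0.035), but not without mesenchyme replicate 2 (adjusted p = 0.37) or 5 (0.22). Col9a1 and its partner chains changed unequally. Col9a1 minus Col9a2 was 2.39 ± 0.97 (SD, n = 10) in the E9.5 arches and -0.31 ± 0.34 (n = 7) in ectoderm, and Col9a1 minus Col9a3 was 2.16 ± 0.81 and -0.15 ± 0.53 (exact permutation p = 0.000103 and 5.14e-05, both adjusted to 0.0017). Neither difference overlapped between the groups. Over 22 group means Col9a1 had r = 0.09 with Col9a2 and 0.48 with Col9a3, which was highest in the otic vesicle (0.97).

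Col9a1 is annotated with 2 transcript starts 17.6 kb apart, and its single probe set does not say which start the arch RNA used. Both upstream stretches are printed, as RefSeq gives them on the plus strand of GRCm38.p6, with capitals as above. They are chr1:24177360-24177588 for the first start and chr1:24194953-24195202 for the second. The first print holds 229 bases and the second 250. The first ends before its transcript start, so the bases next to that start are not shown.
Col9a1 first start: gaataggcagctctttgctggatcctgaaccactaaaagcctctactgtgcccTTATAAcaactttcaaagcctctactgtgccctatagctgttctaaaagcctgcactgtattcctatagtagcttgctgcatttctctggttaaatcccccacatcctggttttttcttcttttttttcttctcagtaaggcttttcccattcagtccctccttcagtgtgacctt
Col9a1 second start: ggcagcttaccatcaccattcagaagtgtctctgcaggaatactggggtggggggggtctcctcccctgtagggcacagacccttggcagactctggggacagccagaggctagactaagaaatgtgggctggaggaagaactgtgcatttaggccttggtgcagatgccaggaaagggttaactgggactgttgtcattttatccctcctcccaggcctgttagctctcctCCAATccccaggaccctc
As printed, the first stretch held TATAA on both strands, at -196 to -192 and -197 to -193 from its start. The second held CCAAT at -18 to -14, and neither print held GGGCGG. Because the first print is shorter, its motifs cannot be set against the shares given above for 250 bases.

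The remaining FACIT genes, Col12a1, Col16a1, Col19a1, Col20a1 and Col22a1, had ranges of group means from 0.28 to 0.77. Col16a1 was 1.30-fold higher in the nasal groups than in their neuroepithelium (0.38 ± 0.10 SE, adjusted p = 5.2e-03), a value of 0.15 with an adjusted p of 0.33 once each array's 5th percentile was a covariate.

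Among basement membrane collagens, Col4a1 (probe set 10576973) and Col4a2 (probe set 10570068) encode the chains of the sheet found under nearly all epithelia and around vessels. They had r = 0.87 over group means. Col4a1 read 0.64, 0.48, 0.45, 0.70, 0.09 and 0.30 in E9.5 cranial mesenchyme and -0.30, 0.00, 0.00, -0.12 and -0.42 in neuroepithelium. These did not overlap, at 1.53-fold (0.61 ± 0.13 SE, adjusted p = 2.4e-03), whereas Col4a2 differed by 0.27 ± 0.12 SE, also without overlap, and was not called (adjusted p = 0.49). The within-library difference of the 2 chains did not pass in any of the 4 comparisons, with adjusted p from 0.14 to 0.67. In cranial mesenchyme 4 of 10 endothelial markers were higher too, and their part in the Col4a1 difference was not tested. Col4a2 was called once, lower in E10.5 Rathke's pouch, the pocket of oral ectoderm that makes the anterior pituitary, than in maxillary arch ectoderm (-0.53 ± 0.13, adjusted p = 0.015), where 0.943% of all genes were lower. Its pouch libraries read 0.30, 0.28, -0.16, -0.29 and -0.14 and the ectoderm 0.24, 0.65, 0.38 and 0.82, with overlap at pouch replicates 1 and 2 and ectoderm replicate 1, and the call ended without ectoderm replicate 2 or 4 or pouch replicate 4. Col4a3, Col4a4, Col4a5 and Col4a6, chains of the kidney, lung and muscle membranes, had ranges from 0.37 to 0.56.

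Col18a1 (probe set 10370259), a basement membrane collagen whose cut end is endostatin, was the 1 collagen lower in E8.5 mesenchyme. Its group means were highest in the 3 neural epithelia of E8.5, with 1.12, 1.71, 1.11 and 0.95 in the caudal, 0.23, -0.22, 1.02 and 1.19 in the floor plate and 1.14, 0.63, 0.94, 0.25 and 0.70 in the non-floor plate group. The mesenchyme libraries of that stage were 0.11, -0.35, -0.31, 0.00 and -0.19, below all but floor plate replicate 2, and the mean was 1.98-fold lower (-0.99 ± 0.23 SE, adjusted p = 4.2e-03). Later neural groups did not keep this level, with means of 0.18 at E9.5 and between -0.50 and 0.24 at E10.5. Col18a1 was not called in the other 3 comparisons of mesenchymal tissue with epithelium, with differences of -0.17 in cranial mesenchyme (adjusted p = 1 by limma), -0.24 in the nasal groups (0.45) and 0.44 in the arches (0.10). Its r with the mesenchyme markers was -0.39 over the 22 group means. The other multiplexin gene, Col15a1, had a range of 0.61 and was 1.22-fold higher in the nasal groups (0.29 ± 0.10 SE, adjusted p = 0.038), a call lost when any of 9 single libraries was left out, for instance 0.26 with an adjusted p of 0.086 without medial nasal replicate 1.

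The group means of some collagens followed the spread of the arrays, given as the mean array SD of the group. With that SD 10 of 44 collagens (22.7%) had r over 0.7, against 9.1% of all genes. Of the type VI chains, which form beaded filaments around cells, Col6a1, Col6a2 and Col6a3 had r of 0.81, 0.74 and 0.80, whereas Col6a4, Col6a5 and Col6a6 had 0.26, 0.34 and 0.34. Of the short-chain network collagens Col8a2 had 0.86 and Col8a1 and Col10a1 had 0.55 each. The other 6 of the 10 were Col1a1, Col11a2, Col7a1, Col16a1, Col17a1 and Col20a1, at 0.72 to 0.81. Of the 15 collagens lower in the E9.5 arches than in ectoderm 6 belonged to these 10, and the 15 differences ran from -0.19 to -0.44, with Col11a2, Col7a1, Col27a1 and Col6a4 at the far end. In Col7a1, the anchoring fibril chain of skin, ectoderm ran from -0.08 to 0.99 and the arches from -0.61 to 0.40, with overlap. Without the widely spread arrays 4 of these lower calls were left, and with each array's 5th percentile as covariate 0 were, while 6 of the 7 higher calls passed in that same fit. The 7 surface ectoderm markers lower in the arches moved with them, and the part of array spread and of cell types in these lower values was not tested. Of the 9 collagens higher in the nasal groups, Col1a2, Col3a1 and Col26a1 passed with that covariate, whereas Col1a1, Col7a1, Col13a1, Col15a1, Col16a1 and Col27a1 did not, at adjusted p from 0.068 to 0.92.

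**Figure D5:**
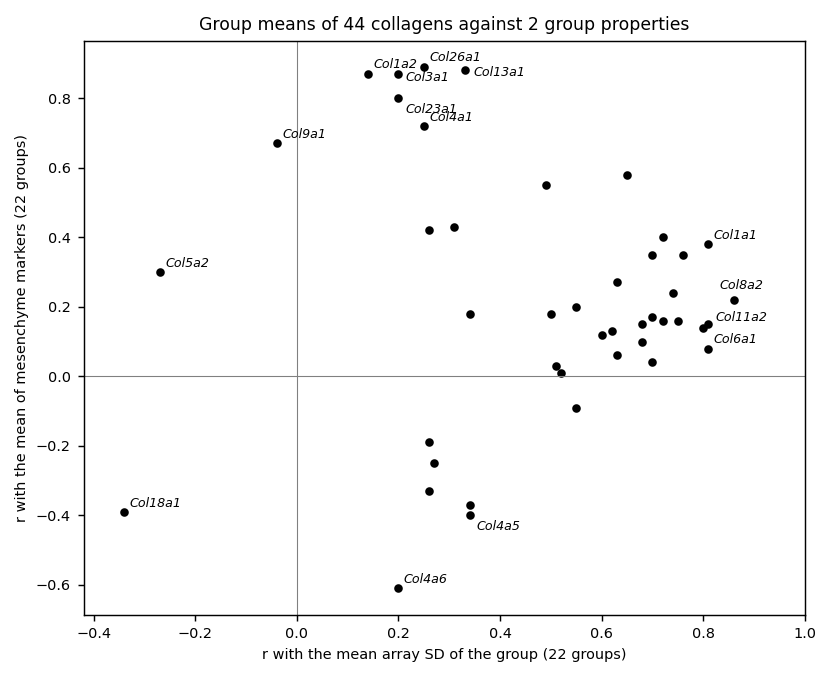
Correlation over 22 group means of each of the 44 collagens with the mean of 9 mesenchyme markers (y axis) and with the mean array SD of the group (x axis), 1 point per gene. Col26a1, Col13a1, Col1a2, Col3a1, Col23a1 and Col4a1 lie above 0.7 on the y axis, and Col8a2, Col1a1, Col11a2 and Col6a1 lie above 0.8 on the x axis.

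From E9.5 to E10.5 the libraries labelled maxillary arch differed in 6 collagens. Col9a1, Col23a1, Col3a1, Col26a1 and Col5a2 were lower and Col6a1 was higher, at a background of 6.88% of all genes lower and 1.68% higher. The Col6a1 call was narrow (0.53 ± 0.18 SE, adjusted p = 0.049). Its E10.5 replicate 5 stood at 1.13 and replicates 1 to 4 at 0.01 to 0.18. Col9a1 fell from the values given above to 0.50, 0.11, 0.14, -0.75 and 0.07, with no overlap and a 3.78-fold change (-1.92 ± 0.33 SE, adjusted p = 8.9e-05). Col3a1 read 0.47, 0.29, -0.04, -0.45 and 0.06 at E10.5, 2.27-fold lower (-1.18 ± 0.25 SE, adjusted p = 2.6e-03), with 1 overlapping library on each side. Over the same contrast all 10 endothelial markers were lower, 1 of 9 mesenchyme markers was lower and 2 of 9 surface ectoderm markers were higher. Their part in the fall was not tested. Without E10.5 replicates 1 to 4, whose surface ectoderm markers were high, the 1 library left gave 2 calls, Col9a1 lower and Col6a1 higher, on the assumption that it varies like the other groups. With only the 2 groups in the fit no collagen passed, Col9a1 having an adjusted p of 0.15. Leaving out E9.5 replicate 2 ended the calls of Col5a2 (-0.42, adjusted p = 0.11) and Col26a1 (adjusted p = 0.08).

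Other contrasts held no collagen call by limma. The shares of all genes given here are at an adjusted p under 0.05. They are no background for the counts at an unadjusted p, for which the share of all genes is not given. In the E10.5 maxillary arch against its ectoderm 0 of 44 passed (0.0100% of all genes did), with 5 at an unadjusted p under 0.05, all lower. Surface ectoderm markers were high on both sides of that comparison. Neuroepithelium at E10.5 against E9.5 and floor plate against non-floor plate at E8.5 had 0 calls and 0 at an unadjusted p under 0.05, with 0.426% and 0.181% of all genes called. The olfactory pit against maxillary ectoderm had 0 calls and 7 unadjusted, with 0.692% of all genes called. Medial against lateral nasal tissue and mandibular against maxillary arch at E10.5 also had 0 calls, with 2 and 7 unadjusted and 0.115% and 0.772% of all genes called. The difference of the mesenchyme-minus-neural contrast between E10.5 and E9.5 had 0 calls and 5 unadjusted, with 0.341% of all genes called.

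Of 11 pairs of partner chains tested in the 4 tissue comparisons, 5 changed unequally at E8.5, 1 in E9.5 cranial mesenchyme, 1 in the nasal groups and 4 in the E9.5 arches, after adjustment over 44 exact permutation tests. These pairs were chosen with the values of the genes known. Besides those above, Col5a2 minus Col5a1 was higher in E8.5 mesenchyme than in neural epithelia by 0.40, without overlap (exact permutation p = 0.000117, adjusted p = 0.0017), and Col11a1 minus Col11a2 was lower in the nasal groups by 0.39 (difference -0.39, exact permutation p = 0.00233, adjusted p = 0.017). Pairs encoded to assemble together and lying in 1 structural class still ranged widely in r over group means, from 0.89 for Col4a3 with Col4a4 and 0.84 for Col6a1 with Col6a3 to 0.42 for Col1a1 with Col1a2 and -0.16 for Col5a1 with Col5a2. The median r over all 946 pairs of collagens was 0.4.

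Genes that act on collagen were counted in the same comparisons. Of 15 genes of collagen folding and hydroxylation in the endoplasmic reticulum, 1 was higher in E8.5 mesenchyme (P3h1, a prolyl hydroxylase, 1.20 ± 0.32, adjusted p = 0.016) and 0 in E9.5 cranial mesenchyme. In the E9.5 arches 8 were higher and 0 lower, where 23.3% of all genes were higher and 13.6% lower, with a list median of 0.94 against 0.05 for all genes. Crtap, a partner of that hydroxylase, differed by 2.19 ± 0.60 (adjusted p = 0.004) and P4hb, a subunit of prolyl 4-hydroxylase, by 2.01 ± 0.60 (adjusted p = 0.0076). In the nasal groups 2 of the 15 were lower, P4hb by -2.94 ± 0.61 (adjusted p = 0.00036) and P4ha1, another subunit, by -1.52 ± 0.50 (adjusted p = 0.022), a count near the background of 14.9% of all genes lower there. Of 11 genes of processing and crosslinking, Pcolce, which speeds the trimming of fibrillar procollagen, was higher in all 4 comparisons, by 2.90 ± 0.40 at E8.5, 3.44 ± 0.47 in cranial mesenchyme, 2.61 ± 0.38 in the nasal groups and 3.73 ± 0.38 in the arches, with adjusted p from 7.7e-12 to 5.5e-07. These differences exceeded those of every collagen in the same comparison. Among 8 collagen receptors Ddr1, an epithelial receptor kinase, was lower in cranial mesenchyme (-1.27 ± 0.27, adjusted p = 0.0021) and in the nasal groups (-1.24 ± 0.22, adjusted p = 4e-05). The integrin chain Itgb1 was lower in the nasal groups too (-1.77 ± 0.45, adjusted p = 0.0029), where the receptor kinase Ddr2 was higher (0.28 ± 0.09, adjusted p = 0.021). Mrc2, a receptor that takes up collagen, was higher in the arches (0.70 ± 0.13, adjusted p = 9.2e-05), and no receptor was called at E8.5. Of 6 collagen-cutting enzymes, Mmp2 was higher in the arches (2.25 ± 0.37, adjusted p = 8.9e-06) and Mmp9 lower. Of 10 basement membrane partners, Nid2, a nidogen that links collagen IV to laminin, was higher in E8.5 mesenchyme (1.03 ± 0.19), cranial mesenchyme (0.92 ± 0.22) and the arches (1.05 ± 0.18), and was not called in the nasal groups. Of the cartilage and notochord factors, Sox9, the activator of cartilage collagen genes, was higher in cranial mesenchyme (1.18 ± 0.30), in the arches (1.52 ± 0.25) and in the otic vesicle (1.53 ± 0.28). In cranial mesenchyme Sox5, Sox6, Acan, Hapln1 and Matn1 were not called. At E8.5 Sox9 was not called (0.863 ± 0.263, adjusted p = 0.06), while Hapln1 (4.404 ± 0.375, adjusted p = 2.3e-15) and Matn1 (0.392 ± 0.095, adjusted p = 0.0064) were higher in mesenchyme.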

How the data were processed

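Per the submitters' processing notes the authors used RMA, with no version, and build mm9. The deposited table holds 1 linear ratio per probe set and sample. From the values alone, each probe set's median over 21 samples is 1 within 6e-08. The planned design had assumed log2 levels, and log2 of the ratios was used instead, with no filter on low values. Of 28856 probe sets with values, 21789 had 1 gene symbol, and the probe set with the highest mean stood for a gene.

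The limma package, version 3.58.1 under R 4.3.3, fitted the means of 22 groups to 102 samples (80 residual degrees of freedom). The fit was tried on simulated data for the E8.5 comparison of mesenchyme with neural epithelia. Simulated libraries were independent and had the same spread for a gene in every group. The trial therefore does not cover the unequal spread or the correlation of the real arrays. Chain pairs were tested by exact permutation of libraries. The collagens, lists and tests were chosen with earlier results of these data known. Collagens named were up to 6 called of each direction in a comparison with the largest difference, their partner chains, and the strongest and widest of each class, and of each other list up to 3 called genes of each direction, some of which are left out here. The 4 neuroepithelium samples whose titles disagree with their other labels were placed by the latter. The number of arrays limits the precision.

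Alternatives were quantile normalization, array weights, the mean over probe sets, each of the 94 libraries of the compared groups left out, the compared groups alone with the replicate number as a block or without it, other placements of samples with conflicting labels, and omission of 11 widely spread arrays. Chosen after seeing the data were a covariate for each array's 5th percentile, omission of doubted libraries, and the mean of 2 similar arrays as 1 library.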

Additional observations from a re-analysis of the deposited data

Results flagged for a closer look

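Single libraries were examined for 10 collagens, the strongest and widest of each class, and not for the other collagens. Of 220 pairs of such a collagen and a group of 4 to 7 libraries, 21 held a library that stood apart from the rest of its group by Dixon's test, where chance gives about 1 in 20. In the E10.5 maxillary arch, replicate 5 stood at 0.80 for Col13a1 (others -0.13 to 0.09) and at 1.13 for Col6a1 (others 0.01 to 0.18), and it is the replicate of that label whose surface ectoderm markers were low. In E9.5 epidermal ectoderm, replicate 7, the most widely spread array, stood at 0.97 for Col6a1 (others -0.14 to 0.25) and at 0.74 for Col8a2 (others 0.00 to 0.29). Col18a1 was at 1.19 in E10.5 midline neuroepithelium replicate 2 (others -0.33 to -0.17) and at 0.91 in Rathke's pouch replicate 3 (others -0.17 to -0.01). Col26a1 was at 1.31 in E10.5 maxillary arch epidermal ectoderm replicate 4 (others -0.06 to 0.01), and Col8a2 at 0.67 in replicate 3 of that group (others 0.22 to 0.30). Col23a1 was at 0.52 in E8.5 mesenchyme replicate 5, at 1.19 in E9.5 cranial mesenchyme replicate 3 and at 0.59 in E9.5 otic vesicle replicate 3. Col8a2 was at 0.48 in E9.5 mandibular arch replicate 4 (others -0.20 to -0.08).

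Of the others, Col1a2 was at -0.33 in replicate 3 of the neuroepithelium under the medial nasal prominence. Col26a1 was at -0.50 in E8.5 floor plate replicate 1 and at -0.99 in non-floor plate replicate 3. Col4a1 was at 0.11 in Rathke's pouch replicate 4. Col4a2 was at 0.32 in E10.5 mandibular arch replicate 3, at -0.19 in replicate 4 labelled mandibular arch epidermal ectoderm, at -0.14 in replicate 1 of the neuroepithelium under the medial nasal prominence and at -0.20 in olfactory pit replicate 2. In that same olfactory pit replicate Col9a1 was at -0.36 (others 0.08 to 0.15).

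The mesenchyme-minus-neural difference of Col1a2 was larger at E9.5 than at E8.5 by 1.61, a difference tested as such by limma (adjusted p = 8.7e-03).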

How the results depend on the processing

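None of the 54 calls of single collagens changed sign under any alternative run. Uncalled differences of collagens and differences of other genes were not followed in this way. Numbers here are counts of collagens called, with the reported count in parentheses. Quantile normalization gave 2 (1) between the mesenchyme stages. Array weights gave 19 (2) for arches against cranial mesenchyme, 6 (1) between mesenchyme stages, 23 (6) between maxillary arch stages, 2 (1) for the otic vesicle, 0 (1) for Rathke's pouch, 2 (0) for mandibular against maxillary arch and 1 (0) for the difference E10.5 minus E9.5. Without the widely spread arrays there were 11 (22) for arches against ectoderm, 2 for the otic vesicle and 0 for Rathke's pouch. With the compared groups alone and no replicate block there were 2 (6) for cranial mesenchyme against neuroepithelium, 8 for arches against ectoderm and 0 for arches against cranial mesenchyme, both stage comparisons, the otic vesicle and Rathke's pouch. Replicate numbers did not pair the samples throughout, with same-number correlations from -0.39 to 0.69. At most 2 of 4 samples of a comparison correlated best with their own number. The highest correlations joined E9.5 cranial mesenchyme replicate 2 to mandibular arch replicate 2 (0.64) and to maxillary arch replicate 2 (0.69). Whether these libraries share a source is not stated. With the replicate number as a block there were 2 (5) at E8.5, 0 for cranial mesenchyme against neuroepithelium, 3 (9) for the nasal groups, 5 for arches against ectoderm and 0 for arches against cranial mesenchyme, both stage comparisons, the otic vesicle, Rathke's pouch and the difference E9.5 minus E8.5. With the sample of conflicting labels as ectoderm the otic vesicle had 0. Of the alternatives chosen after seeing the data, a covariate for each array's 5th percentile gave 3 for the nasal groups, 6 for arches against ectoderm, 2 for the otic vesicle, 6 for Rathke's pouch and 1 (0) for medial against lateral nasal tissue. Leaving out otic libraries 3 and 5 gave 3, and leaving out maxillary arch libraries 1 to 4 gave 2 between maxillary stages. The cause of these shifts was not tested. Leaving out 1 library at a time gave 3 to 5 at E8.5, 5 to 7 for cranial mesenchyme, 6 to 15 for the nasal groups, 11 (without ectoderm replicate 7) to 32 (without maxillary arch replicate 4) for arches against ectoderm, 1 to 3 for arches against cranial mesenchyme, 3 (without E9.5 replicate 2) to 15 (without E9.5 replicate 4) between maxillary stages, 0 to 2 for the otic vesicle, 0 to 3 for Rathke's pouch, and 0 to 1 for mandibular against maxillary arch, the olfactory pit and the difference E10.5 minus E9.5. The F test gave 32 to 38 (36) over the 94 libraries of the compared groups. Of 54 calls of single genes, 24 were lost when some library was left out. With the compared groups alone 30 of the 54 were lost, and with the replicate number as a block 44 were. The covariate for each array's 5th percentile lost 23.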

Other observations

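In the E9.5 sample that carries both a mandibular arch and an epidermal ectoderm label, Col9a1 had a log2 ratio of 1.57, Col3a1 0.90, Col6a4 0.66, Col1a2 0.61, Col23a1 0.36 and Col26a1 0.21, while Col9a3 was at -0.55. The Col9a1 value lies between the lowest arch library of that stage, at 0.57, and the highest, at 3.01, and above the highest ectoderm library, at 0.13. The sample was put in no group on this basis.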
